A study of Mus musculus with 9 samples.

Results

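The cultures described here were mouse cells labelled as cultured cortical astrocytes that had received no ligand. They make up 3 libraries of the 9 in the series, chosen by their label alone: the columns of the control group were taken and no treated library was used. Per the labels' protocols, the cells grew on poly-L-lysine in high-glucose medium with 10% fetal bovine serum, were moved to new dishes before confluence, and gave RNA enriched for poly(A). The controls are titled with the 3 day time, which is the collection time of a group treated with noradrenaline. Another group was collected at 90 min. The labels name no mouse strain, sex or age for the controls, and they do not say whether the 3 libraries came from separate cultures or animals. Every SD below is therefore the scatter of 3 libraries only, and it may be technical in origin.

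Astrocytes are glial cells that clear glutamate and potassium around synapses, pass water and small molecules through aquaporin and gap junction channels, and supply neurons with lactate, lipids and secreted signals. They carry receptors for noradrenaline and other transmitters, so the genes they express before stimulation set what a ligand can act on. Cultures made from newborn cortex and kept in serum are known to stay able to divide, and to hold, to varying degrees, cells of the vessel wall, the meninges and other glia.

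A level below is a gene's count per 1000000 counts of its library (CPM), given as mean ± SD over the 3 libraries (n = 3), or as 3 values in the order control 1, 2 and 3. CPM is a share of reads and favours long transcripts. Where genes are set against each other, a length-scaled level is used: the CPM of a gene divided by the length of its longest transcript in the GENCODE M21 basic set, scaled to the same total as CPM. A gene is called present at 1 CPM or more in each library, which is 15.5 to 18.3 counts. Of 22100 genes in the table, 12127 were present (54.9%), 4045 had counts without reaching that level in every library, and 5928 had 0 counts in all 3 (26.8%). A count of 0 allows a level of up to 3 counts, or 0.164 to 0.193 CPM, and this covers counting error only. Among 21087 genes that RefSeq lists as protein-coding, 12003 were present (56.9%). These shares are the background for the counts of list members below. The libraries held 15529158 to 18271360 counts, and 2493 genes averaged at least 100 CPM.

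Counts were spread over many genes. The 30 genes with the highest CPM held 7.939% ± 0.0928 of all counts, and the 100 highest held 15.44% ± 0.159. No gene with a mitochondrial (mt-) name was among the genes counted, so the shares and ranks leave such genes out. Translation genes opened the ranking. Eef1a1, which codes for the elongation factor that brings aminoacyl-tRNA to the ribosome, stood at 9501, 9549 and 9528 CPM, and it was also first per length. The elongation factor gene Eef2 was at 3703 ± 45.6 CPM, the ribosomal stalk gene Rplp0 at 1677 ± 29.6 CPM, and the growth-associated gene Tpt1 at 1596 ± 3.83 CPM. Only Rplp0 of the 85 cytosolic ribosomal protein genes was among the 30 highest by CPM. These genes have short transcripts. Per length 11 of them were among the 30 highest, and together they held 3.96% ± 0.0952 of counts.

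Matrix genes formed the next group among the 30. Bgn, which codes for the small proteoglycan biglycan, was at 4603, 4434 and 4705 CPM, with control 3 highest and control 2 lowest. The fibronectin gene Fn1 was at 2697, 2881 and 3208 CPM and had the widest relative spread of the 30, with control 3 above both others. The collagen-binding glycoprotein gene Sparc was at 1541 ± 27.5 CPM. Ccn2, a matricellular gene known as a target of the YAP and TAZ coactivators, was at 2285 ± 116 CPM. The metalloproteinase inhibitor genes Timp2 and Timp3 were at 1979 ± 35.7 and 1638 ± 57.1 CPM.

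Genes of the cytoskeleton and of adhesion followed. Vim, which codes for the intermediate filament vimentin, was at 4121, 3945 and 4083 CPM. The cytoplasmic actin genes Actg1 and Actb were at 2369 ± 46.9 and 1542 ± 51.4 CPM, and per length Actg1 was 1.51 ± 0.0386 times Actb (1.33 with median transcript lengths). The actin-binding gene Cnn3 was at 1853 ± 37.7 CPM and the giant scaffold gene Ahnak at 2459 ± 130.4 CPM. Ahnak fell from rank 10 by CPM to rank 417 per length. The integrin gene Itgb1 and the N-cadherin gene Cdh2, which codes for an adhesion protein of neural and mesenchymal cells, were at 1839 ± 89 and 1835 ± 84 CPM.

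The other genes of the 30 served membranes, protein handling and iron storage. Gnas, which codes for the stimulatory G protein alpha subunit that couples beta adrenoceptors to adenylyl cyclase, was at 3996, 3823 and 3862 CPM. Its locus also makes overlapping transcripts, and the table does not separate them. Gpm6b, a proteolipid gene of neural cells, was at 3788 ± 31.1 CPM, the endocytic receptor gene Lrp1 at 2454 ± 153 CPM and the membrane protein gene Itm2b at 1873 ± 20.9 CPM. The ferritin genes Fth1 and Ftl1 were at 2693 ± 50.5 and 1799 ± 53.5 CPM. Lysosomal protein genes were represented by Psap, the saposin precursor, at 2335 ± 53.4 CPM and Ctsd, cathepsin D, at 2095 ± 42.3 CPM. Cst3, the secreted cysteine protease inhibitor cystatin C, was at 2150.1 ± 62.7 CPM. It moved from rank 16 by CPM to rank 2 per length, at a length-scaled level of 6698 ± 163. The chaperone genes Hsp90ab1, Hsp90b1 and Calr were at 2402 ± 24.2, 1710.3 ± 77 and 1766 ± 85.5 CPM, and the ubiquitin ligase gene Nedd4 was at 3035 ± 25.3 CPM.

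**Figure D1:**
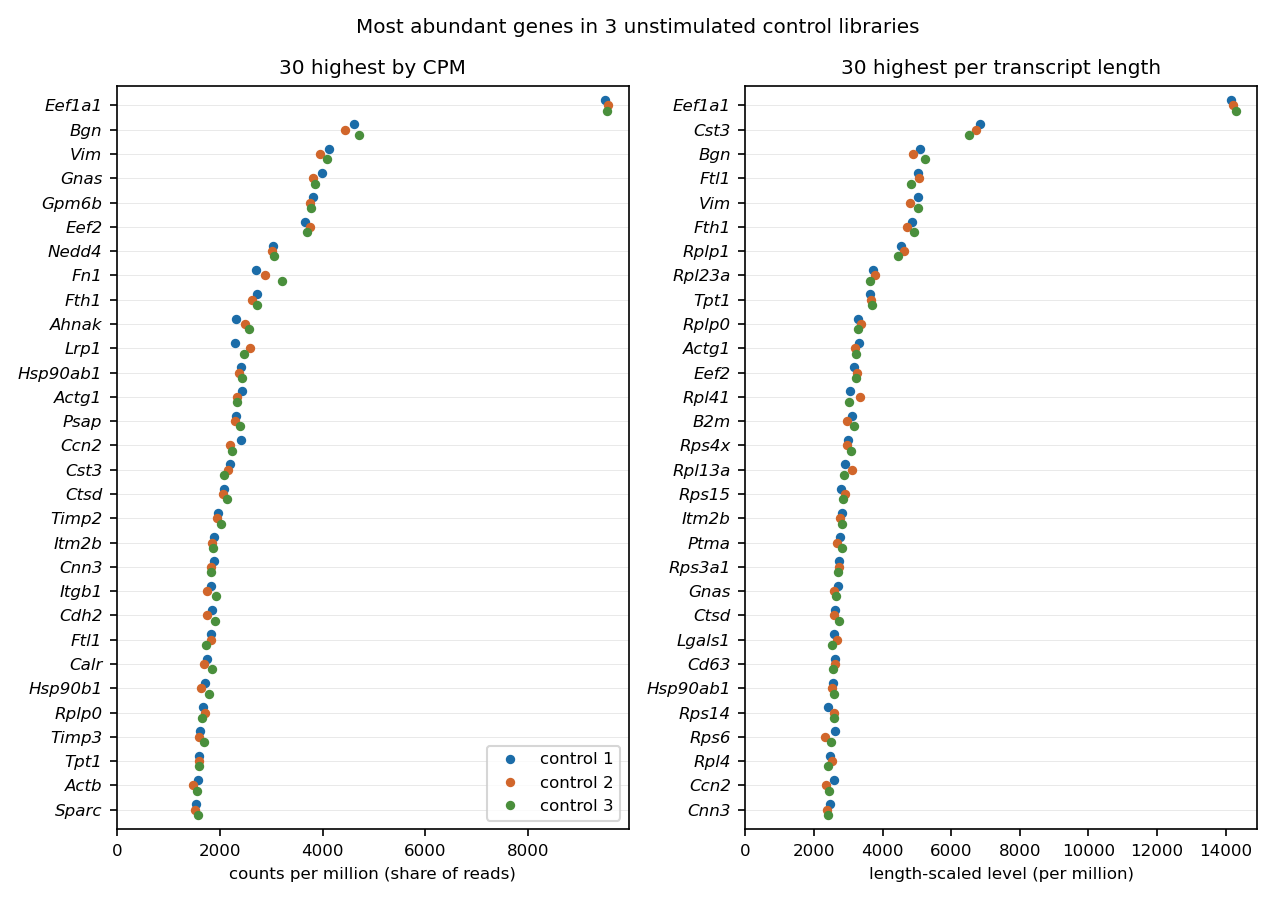
The 30 genes with the highest mean CPM (left, CPM) and the 30 with the highest length-scaled level (right, scaled to the same total), each with 1 point per control library. Eef1a1 is first on both scales, 16 genes are on both lists, and for nearly all genes the 3 points lie close together.

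Per length, Eef1a1 stood alone at 14226 ± 84.6, followed by Cst3, and the ranges of the 3 libraries of these genes did not overlap. Bgn (5074 ± 174), Ftl1 (4978 ± 123), Vim (4948 ± 123) and Fth1 (4829 ± 106) came next, and these neighbours overlapped and could not be put in order. The choice of length matters for such an order. With median transcript lengths Fth1 (6526) stood above Cst3 (5628), and Ftl1 (5505) came close to Cst3. With the median instead of the longest transcript, 24 of the 30 genes highest per length were the same.

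The promoters of abundant genes and of Gfap, the astrocyte filament gene that was nearly absent, are shown because they differ in the core elements they hold. Each line gives the 100 bases that end just before the RefSeq transcription start (GRCm38.p6), 5′ to 3′ on the strand of the gene. Capitals mark matches on either strand to the TATA box (TATAAA), the GC box (GGGCGG) and the CCAAT box (CCAAT), and adjacent matches may overlap.
Eef1a1 (chr9:78481725-78481824, - strand): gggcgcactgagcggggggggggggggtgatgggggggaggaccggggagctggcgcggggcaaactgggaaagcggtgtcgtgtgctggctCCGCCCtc
Bgn (chrX:73483501-73483600, + strand): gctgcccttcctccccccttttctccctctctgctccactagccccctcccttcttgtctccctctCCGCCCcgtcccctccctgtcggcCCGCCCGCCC
Vim (chr2:13574211-13574310, + strand): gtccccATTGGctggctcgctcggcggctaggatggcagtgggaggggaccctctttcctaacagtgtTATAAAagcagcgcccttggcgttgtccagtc
Actg1 (chr11:120348496-120348595, - strand): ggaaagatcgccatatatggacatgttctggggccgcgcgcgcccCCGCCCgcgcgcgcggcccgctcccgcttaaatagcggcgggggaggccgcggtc
Gfap (chr11:102897201-102897300, - strand): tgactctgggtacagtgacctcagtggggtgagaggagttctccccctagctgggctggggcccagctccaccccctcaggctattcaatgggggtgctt

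The Eef1a1 window holds 1 GC box, the Bgn window 3 and the Actg1 window 1, with no TATA box. The Vim window holds a TATA box, which begins 32 bases before the start, and a CCAAT box on the opposite strand. The Gfap window holds none of these letters. Over the RefSeq windows of 300 bases (250 before and 50 after a start), a GC box was found in 70.5% of 9714 present genes with a window and in 14.6% of 4460 genes at 0 counts, against 35.7% of all 32851 windows. A TATA box was found in 8.24% of present genes and in 27.6% of genes at 0 counts, against 13.6% of all windows. Of the 76 genes with a window among the 100 highest by CPM, 19 held a TATA box (25%) and 56 a GC box (73.7%). The CCAAT box was in 43.4% of present genes and 40.8% of genes at 0 counts, against 37.4% of all windows. The shares of genes count a match in any window of a gene, whereas the shares of all windows count each window once. Of the 32851 windows, 20870 belonged to genes counted here, so the shares of all windows are not a like-for-like background. Genes with several windows had more chances of a match. In genes with 1 window the GC box shares were 68.1% of present genes and 13.1% of genes at 0 counts. The CCAAT box shares of these genes were 40.1% and 39.5%. A match describes the letters only.

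The label of the cells was checked against 25 genes known to mark astrocytes. 19 of 25 were present, against 54.9% of all genes, and their summed level was 2143 to 2216 CPM in the 3 libraries. The lipid carrier genes Clu and Apoe, which other cells express too, held 560.3 ± 24.7 and 368 ± 5.12 CPM. Sox9, the gliogenic transcription factor gene, was at 247, 248 and 257 CPM. The glutamate transporter gene Slc1a3 was at 132, 131 and 133 CPM and its partner Slc1a2, which dominates in mature astrocytes of the forebrain, at 32.8, 34.3 and 33.2 CPM. The 3 libraries were nearly equal for each of these genes. Per length Slc1a3 was 11 ± 0.303 times Slc1a2, but 3.41 times with median transcript lengths. The bicarbonate transporter gene Slc4a4 was at 330.3 ± 1.42 CPM, the glutamine synthetase gene Glul at 121 ± 3.45 CPM and the connexin 43 gene Gja1 at 56.1 ± 5.12 CPM. The water channel gene Aqp4, at 33.5 ± 0.591 CPM, and the folate enzyme gene Aldh1l1, at 22.5 ± 0.491 CPM, were also present.

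Several genes that define mature astrocytes were at or near the detection limit. Gfap had 26, 13 and 19 counts, or 1.42, 0.837 and 1.18 CPM, so it missed the threshold in control 2. Vim exceeded Gfap per length by 4454 ± 1123 times, a ratio that rests on those few counts and ranged from 3497 to 5691 over the libraries. S100b, a calcium-binding protein gene, was present at 1.7 ± 0.143 CPM. The potassium channel gene Kcnj10, which buffers extracellular potassium, had 8, 8 and 3 counts. The adhesion gene Hepacam had 10, 9 and 8 counts and the neurotensin receptor gene Ntsr2 1, 2 and 1. The connexin 30 gene Gjb6 and the amino acid transporter gene Slc7a10 had 0 counts in each library. General astrocyte genes were thus present and several defining ones were at or near 0, so the libraries are called control cultures below. In such bulk RNA, fewer cells of a type and less RNA per cell cannot be told apart.

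**Figure D2:**
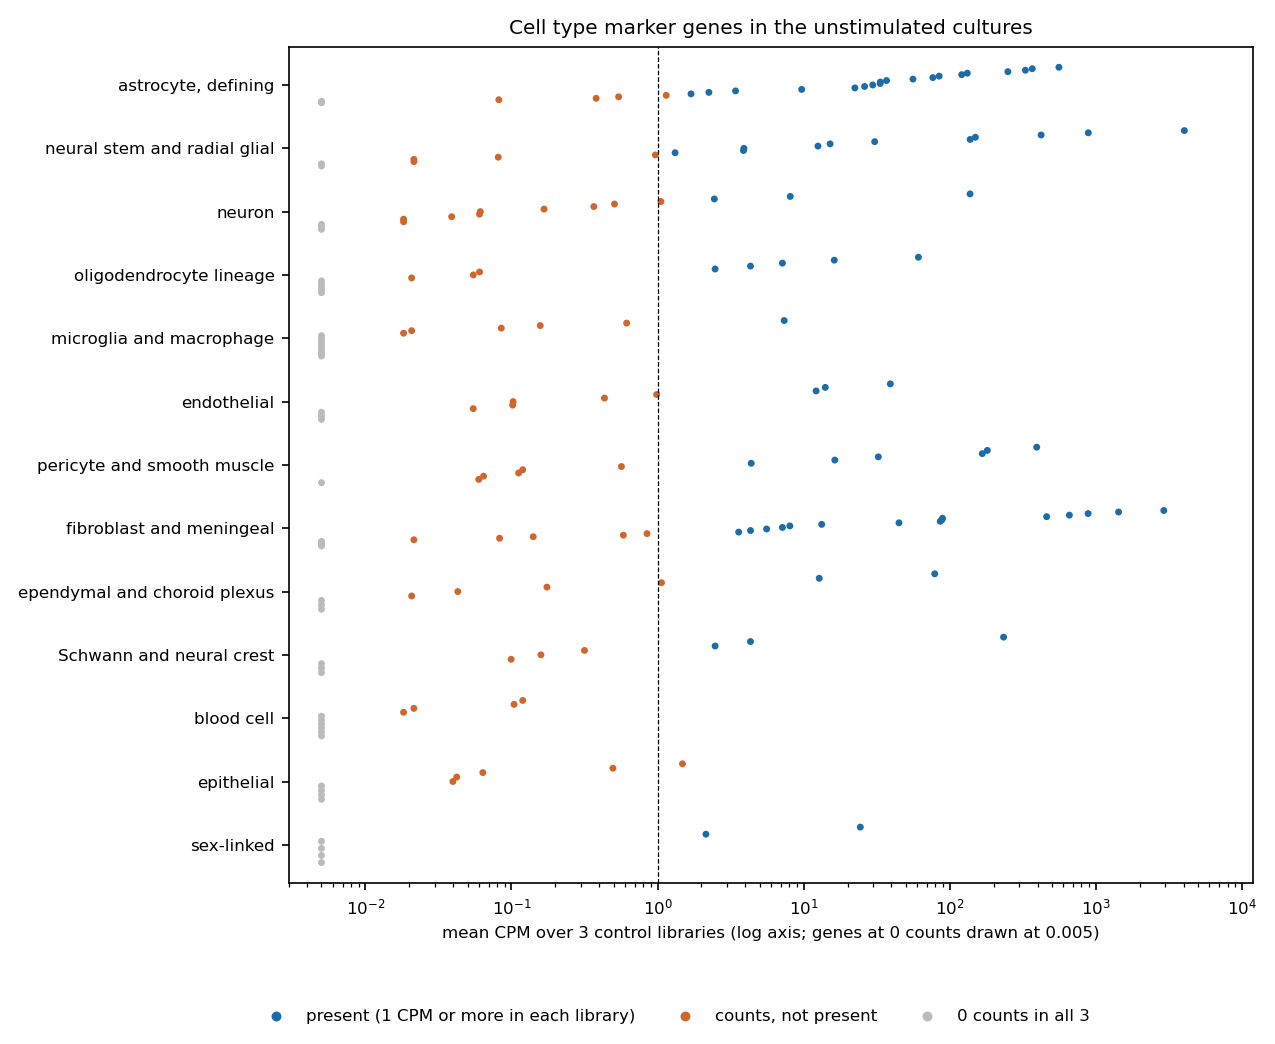
Mean level of each marker gene (CPM, log axis) by cell type list, 1 point per gene; blue points are present genes, orange points have counts without being present, grey points had 0 counts and are drawn at 0.005. Astrocyte, progenitor and fibroblast lists hold most of the points above 100 CPM, and 9 of 15 microglia markers are at 0.

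Genes of neural progenitors and radial glia were represented by 11 of 17 markers. Beside Vim, the intermediate filament gene Nes was at 417, 400.0 and 453 CPM and the stem cell factor gene Sox2 at 155, 144 and 151 CPM. The matrix gene Tnc, expressed by radial glia and by reactive and mesenchymal cells, was at 891 ± 47.2 CPM, and Notch1, a receptor of progenitors, at 138 ± 5.07 CPM. The atypical homeobox gene Hopx was at 30.7 ± 0.471 CPM. The radial glial fatty acid carrier gene Fabp7 was at 3.88 ± 0.515 CPM. Pax6 had 16, 15 and 17 counts, and the Notch effector gene Hes5 was at 0 in every library. Neurog2 and Eomes, markers of neuronal precursors, had at most 2 counts in a library, and the phosphatase gene Ptprz1 had 1 count in all.

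Of 24 markers of fibroblasts and meninges 15 were present, and their summed level was 6441 to 7152 CPM. Fn1, Col1a1 and Col1a2 made up most of it. The fibrillar collagen genes Col1a1 and Col1a2 were at 1385, 1373 and 1548 and 873, 852 and 938 CPM, both highest in control 3. The mesenchymal homeobox gene Prrx1 was at 471, 461 and 453 CPM, the matricellular gene Ccn3 at 661 ± 2.94 CPM and the calcium-binding gene S100a4 at 86.3 ± 4.74 CPM. The proteoglycan genes Ogn and Dcn were at 89.4 ± 4.88 and 88.6 ± 1.29 CPM and the mesodermal factor gene Twist1 at 45 ± 2.15 CPM. Other genes of the list were low. The collagen gene Col3a1 was at 4.33 ± 0.575 CPM, and per length Col1a2 was 215 ± 16.8 times higher. Lum was at 8.05 ± 0.518 CPM and Pdgfra, a receptor of fibroblasts and oligodendrocyte precursors, at 7.17 ± 0.224 CPM. Fap, Tcf21, Slc6a13 and Aldh1a2 were at 0 in every library, and Zic1, a meningeal factor gene, had 1 count in all. The share of fibroblasts in these cultures was not tested.

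Of 12 markers of pericytes and smooth muscle 6 were present. The PDGF receptor gene Pdgfrb was at 397, 394 and 393 CPM, the smooth muscle actin gene Acta2 at 176, 184 and 184 CPM and the actin-binding gene Tagln at 168, 167 and 167 CPM. Notch3 was at 32.5 ± 2.09 CPM, the aminopeptidase gene Anpep at 16.4 ± 0.52 CPM and the calponin gene Cnn1 at 4.38 ± 0.583 CPM. The pericyte gene Rgs5 had 3 counts, all in control 2, the potassium channel gene Kcnj8 was at 0, and Abcc9, Des and Vtn had at most 5 counts in a library. Myh11, the smooth muscle myosin gene, was at 0.566 ± 0.123 CPM. Pdgfrb exceeded Pdgfra 69.5 ± 2.51 times per length.

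Other cell types left few counts. Of 15 microglia and macrophage markers 1 was present, Tmem119, at 7.37 ± 0.509 CPM, a gene also known from bone-forming cells. Cx3cr1, P2ry12, Itgam, C1qa, C1qb, C1qc, Trem2, Tyrobp and Adgre1 were at 0 in every library, the receptor gene Csf1r had 4, 2 and 2 counts, and Ptprc and Mrc1 had 1 count each in all. Of 15 neuron markers 3 were present: the microtubule gene Map2 (138 ± 1.02 CPM), Syn1 (8.1 ± 0.719 CPM) and Camk2a (2.45 ± 0.36 CPM). The nuclear marker gene Rbfox3 and the synaptic gene Syt1 had 1 count each in all, Snap25 had 1 count in each library, and Gad1, Nefl and Elavl4 had none. In the oligodendrocyte lineage 5 of 13 markers were present, with Cnp at 61.1 ± 1.92 CPM and Mbp at 16.2 ± 0.958 CPM. The lineage factors Olig1, Olig2 and Sox10 and the myelin genes Mobp and Enpp6 were at 0.

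Of 11 endothelial markers 3 were present. They were the angiopoietin receptor gene Tek at 39.3 ± 1.87 CPM, the VEGF receptor gene Flt1 at 14.1 ± 0.969 CPM and the organic anion transporter gene Slco1a4 at 12.2 ± 0.434 CPM. The junction genes Cdh5 and Cldn5 and the receptor gene Tie1 were at 0, and Pecam1 had 1, 1 and 3 counts. Of 9 ependymal and choroid plexus markers 2 were present, among them the ciliogenesis factor gene Foxj1 at 81.5, 81.8 and 73.9 CPM and the cilium gene Enkur at 12.8 ± 0.434 CPM. The thyroid hormone carrier gene Ttr, Tmem212 and Otx2 were at 0. Of 9 Schwann and neural crest markers 3 were present, led per length by the myelin gene Pmp22 (234 ± 8.74 CPM), which fibroblasts also express, with Sox10, Ngfr and Cdh19 at 0. No blood cell marker of 10 and no epithelial marker of 9 was present, and the E-cadherin gene Cdh1 came nearest at 1.48 ± 0.714 CPM, just under 1 CPM in control 1. Krt5, Krt14, Krt18 and Cldn4 were at 0, as were Hbb-bt, Hba-a1, Hba-a2, Ppbp and Cd3e.

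Among transcription factor genes, 21 of 31 on a glial and neural list were present. Nuclear factor I genes, which drive gliogenesis, were at 815 ± 18.9 CPM for Nfix, 562 ± 11.1 CPM for Nfib, 166 ± 4.58 CPM for Nfic and 116 ± 0.691 CPM for Nfia. Zbtb20, a factor gene of astrocytes and hippocampal neurons, was at 929.7 ± 67.8 CPM, and Stat3, which transmits signals of the interleukin 6 family, at 249 ± 2.18 CPM. The dominant-negative helix-loop-helix gene Id3 was the highest of the list per length (535 ± 17.6), and Nfix came next (399 ± 11.3) with no overlap. This order depended on the choice of length. With median transcript lengths Nfix (920) and Zbtb20 (703) both stood above Id3 (450). Etv5, an ETS factor gene downstream of FGF signalling, was at 225 ± 2.78 CPM and Hes1, a Notch effector gene, at 15.2 ± 1.46 CPM. Neurod1 and Dbx2 were at 0 together with Olig1, Olig2, Sox10 and Hes5 named above. Rfx4, an astrocyte and progenitor factor gene, was at 0.0994 ± 0.0312 CPM.

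Genes that pattern the brain along its long axis included those of regions other than the cortex. En2 and En1, the engrailed homeobox genes of the midbrain and anterior hindbrain, were at 591, 586 and 552 CPM and 112, 100.1 and 110.3 CPM. Per length En2 was 3.99 ± 0.32 times En1. En2 was the highest of the list in every library on this scale. The Iroquois genes Irx1 and Irx2 were at 215 ± 4.64 and 190.0 ± 6.32 CPM, and their relatives Irx3 and Irx5 at 14.3 ± 1.02 and 9.09 ± 0.506 CPM. Lmx1b, a LIM homeobox gene of the midbrain and of limb mesenchyme that was on the mesenchymal list, was at 96.7, 103 and 94.8 CPM. In contrast, the cortical gene Emx1 was at 0 in every library and Emx2 had 2, 1 and 1 counts. The cortical selector gene Lhx2 was at 3.26 ± 0.244 CPM, Otx1 at 2.61 ± 0.301 CPM, and Otx2 and Gsx2 were at 0. Tbr1 and Nkx2-1 were at 0.0787 ± 0.0267 and 0.0755 ± 0.0829 CPM. In all 15 of 24 genes of the list were present, and the sources of the cells were not tested here.

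**Figure D3:**
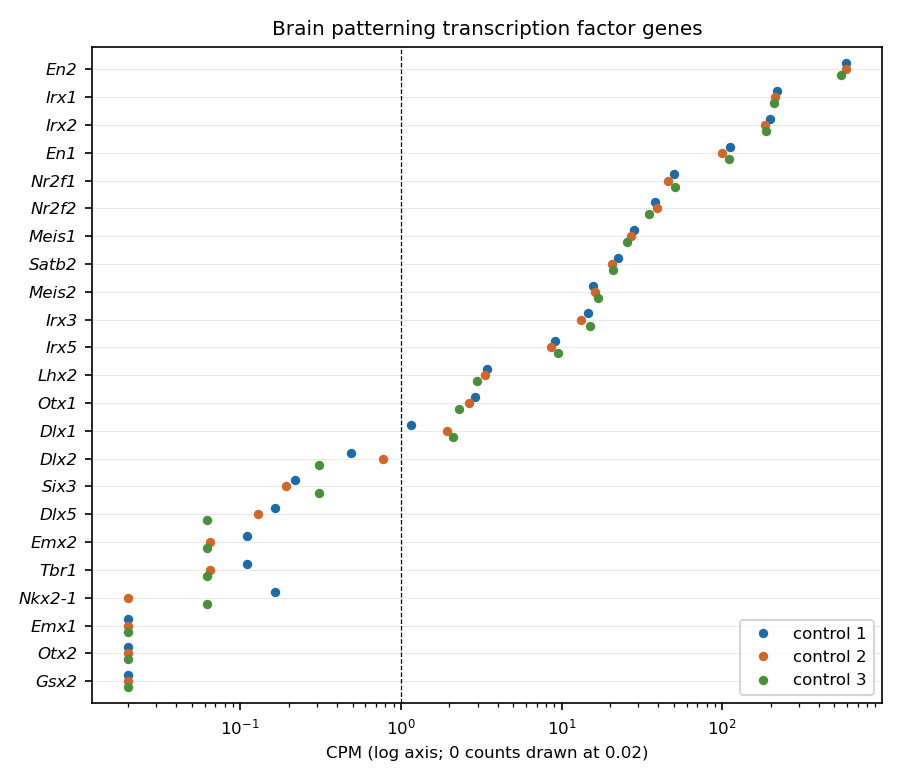
Level of 23 brain patterning transcription factor genes in each control library (CPM, log axis; values of 0 are drawn at 0.02, and the dashed line is 1 CPM). En2, Irx1, Irx2 and En1 lie above 100 CPM in every library, while Emx1, Otx2 and Gsx2 have no counts.

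None of 39 Hox genes was present, and 23 had 0 counts, including Hoxd1, Hoxd3, Hoxd4, Hoxb2, Hoxb4 and Hoxb5. The Hox gene with the most counts, Hoxa7, had 11, 10 and 15 counts. Hox genes mark the hindbrain, spinal cord and trunk. Of 40 mesenchymal factor genes 32 were present. The paired-related homeobox gene Prrx2 was at 244 ± 10.8 CPM and was first of the list per length (453 ± 17.9), ahead of Prrx1 (189 ± 2.76). The mechanosensitive coactivator genes Wwtr1 and Yap1 were at 329.6 ± 10.4 and 224 ± 4.23 CPM, and their partner gene Tead1 at 253 ± 4.49 CPM. The forkhead genes Foxp1 and Foxf1 were at 237 ± 5.84 and 41.4 ± 0.968 CPM. Tbx18, a factor gene of mural cells and meninges, was at 41.1 ± 1.96 CPM and the skeletal factor gene Runx2 at 66.9 ± 2.74 CPM. Tcf21, Six2 and Alx1 were at 0.

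Factors that respond to stimuli were present without added noradrenaline, in cells kept in 10% serum. Of 26 immediate early genes 24 were present, with Jund (96.4 ± 4.33 CPM), Klf6 (223 ± 4.89 CPM), Junb (71.9 ± 4.41 CPM), Maff (62.9 ± 5.44 CPM), Fosl2 (94.6 ± 5.2 CPM) and Ier5 (57.7 ± 4.24 CPM) as examples. Fos was at 3.83, 2.96 and 2.55 CPM, Egr1 at 5.75, 9.59 and 7.58 CPM and Nr4a1 at 10.9, 16.4 and 14.1 CPM. Egr1 and Nr4a1 were both lowest in control 1 and highest in control 2, whereas Fos was highest in control 1. Egr4 and Npas4 did not reach 1 CPM in every library. All 36 genes of the CREB, NF-kB, STAT and stress list were present. Nfe2l1, a factor gene of proteasome recovery, was at 945 ± 38.2 CPM, the hypoxia factor gene Hif1a at 301 ± 9.33 CPM, the antioxidant factor gene Nfe2l2 at 179 ± 9.79 CPM and Xbp1 of the unfolded protein response at 147 ± 3.18 CPM. Atf5, a stress response factor gene, was at 132 ± 3.72 CPM. Creb1, the factor activated by protein kinase A, was at 68.8 ± 0.832 CPM and Crem at 14.5 ± 0.927 CPM.

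Of 37 nuclear receptor genes 28 were present. The thyroid hormone receptor gene Thra was at 168 ± 3.74 CPM, the glucocorticoid receptor gene Nr3c1 at 164 ± 8.56 CPM, the clock repressor gene Nr1d2 at 137 ± 5.66 CPM, the nuclear receptor gene Nr2c2 at 98.9 ± 3.27 CPM and the retinoid X receptor gene Rxra at 94.9 ± 1.61 CPM. The estrogen receptor gene Esr1 was at 10.2 ± 1.12 CPM and the progesterone receptor gene Pgr at 0.162 ± 0.161 CPM. Rxrg, the neural stem cell receptor gene Nr2e1 and Nr5a1 were at 0.

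Most adrenoceptor genes were below the threshold. They code for the receptors through which noradrenaline acts, with alpha-1 types coupled to calcium release, alpha-2 types to inhibition of adenylyl cyclase and beta types to cyclic AMP. Adra1d was at 8.59, 7.79 and 9.26 CPM, above the threshold in every library and lowest in control 2. Its length-scaled level was 12.1 ± 1.09. Adrb1 had 8, 10 and 10 counts and Adra2c 8, 7 and 9, and their length-scaled levels overlapped. Adrb3 had 2, 5 and 2 counts and Adra2a 2, 0 and 6. Adra1b had 0, 1 and 2 counts, Adra2b 0, 0 and 2, and Adra1a 0, 0 and 1, and from Adrb3 down each gene overlapped the next.

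Receptors for other amines and acetylcholine were mostly below the threshold. Of 24 measured genes 4 were present and 9 were at 0. The serotonin receptor gene Htr1b was at 95.1, 89.7 and 91.8 CPM and the muscarinic receptor gene Chrm3 at 6.26 ± 0.798 CPM. Per length Htr1b (52.3 ± 1.52) was the highest of the list and Chrm3 (3.87 ± 0.498) the next, with no overlap. Chrnb2 and Chrm1 were at 2.95 ± 0.772 and 1.53 ± 0.294 CPM. Drd2, Drd3, Htr1a, Htr1d, Htr2c, Htr4, Htr7, Hrh1 and Hrh2 were at 0. Hrh1 codes for a histamine receptor that astrocytes are known to carry. The muscarinic receptor genes Chrm4 and Chrm5 were not analysed here.

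Of 24 glutamate receptor genes 7 were present. The AMPA subunit gene Gria3 was at 119, 111 and 127 CPM and the kainate subunit gene Grik5 at 96.1, 99.4 and 95 CPM. The NMDA subunit genes Grin2a, Grin2d and Grin1 were at 12.3 ± 0.093, 5.5 ± 0.45 and 1.68 ± 0.165 CPM, and Gria1 was at 4.15 ± 0.0859 CPM. No metabotropic gene was present. Grm3, the type of mature astrocytes, was at 0 and Grm5, the type of young astrocytes, had 1 count in all. Grm4, Grm6, Grm7, Grm8, Grin2c and Grik2 were also at 0. Of 15 GABA receptor genes 3 were present: the GABA-B subunit gene Gabbr1 (82.9 ± 5.38 CPM), Gabrb2 (3.2 ± 0.921 CPM) and Gabre (2.22 ± 0.498 CPM). Gabbr2, the partner without which Gabbr1 does not reach the surface, had 1, 2 and 1 counts. Gabra3, Gabra4, Gabra5, Gabrg1 and Gabrd were at 0.

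Of 19 purinergic receptor genes 6 were present. The ATP-gated channel genes P2rx4, P2rx7, P2rx6 and P2rx5 were at 73.2 ± 1.93, 35.7 ± 3.13, 16.8 ± 0.878 and 4.89 ± 0.90 CPM. P2ry2, a receptor for ATP and UTP, was at 25.2 ± 1.14 CPM and the adenosine receptor gene Adora1 at 3.83, 2.25 and 2.3 CPM, highest in control 1. P2ry1, which mediates calcium waves of astrocytes, was at 1.05 ± 0.154 CPM and missed the threshold. P2ry12, P2ry13 and P2ry14 were at 0.

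Of 47 receptor and accessory genes for peptides and lipids 17 were present. The thrombin receptor gene F2r was first per length and was at 371, 351 and 385 CPM. Tacr1, the receptor gene for substance P, was at 106 ± 3.85 CPM. Lysophosphatidic acid receptors were represented by Lpar1 (72 ± 1.96 CPM) and Lpar6 (49.7 ± 4.27 CPM), and sphingosine phosphate receptors by S1pr3 (46.1 ± 2.49 CPM) and S1pr2 (42.7 ± 0.495 CPM). The prostaglandin E receptor gene Ptger4 was at 26.6 ± 1.66 CPM. The endothelin receptor gene Ednrb, known as an abundant astrocyte receptor, had 1, 0 and 1 counts and Ednra none. Agtr1b, Agtr2, Bdkrb1, Oprm1, Calcr, Sstr1, Galr1, Ptger3 and Crhr1 were at 0 as well. The accessory genes Ramp1, Ramp2 and Ramp3 were at 1.8 ± 0.167, 1.11 ± 0.0607 and 1.79 ± 0.221 CPM, and their receptor partner gene Calcrl at 0.237 ± 0.104 CPM.

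**Figure D4:**
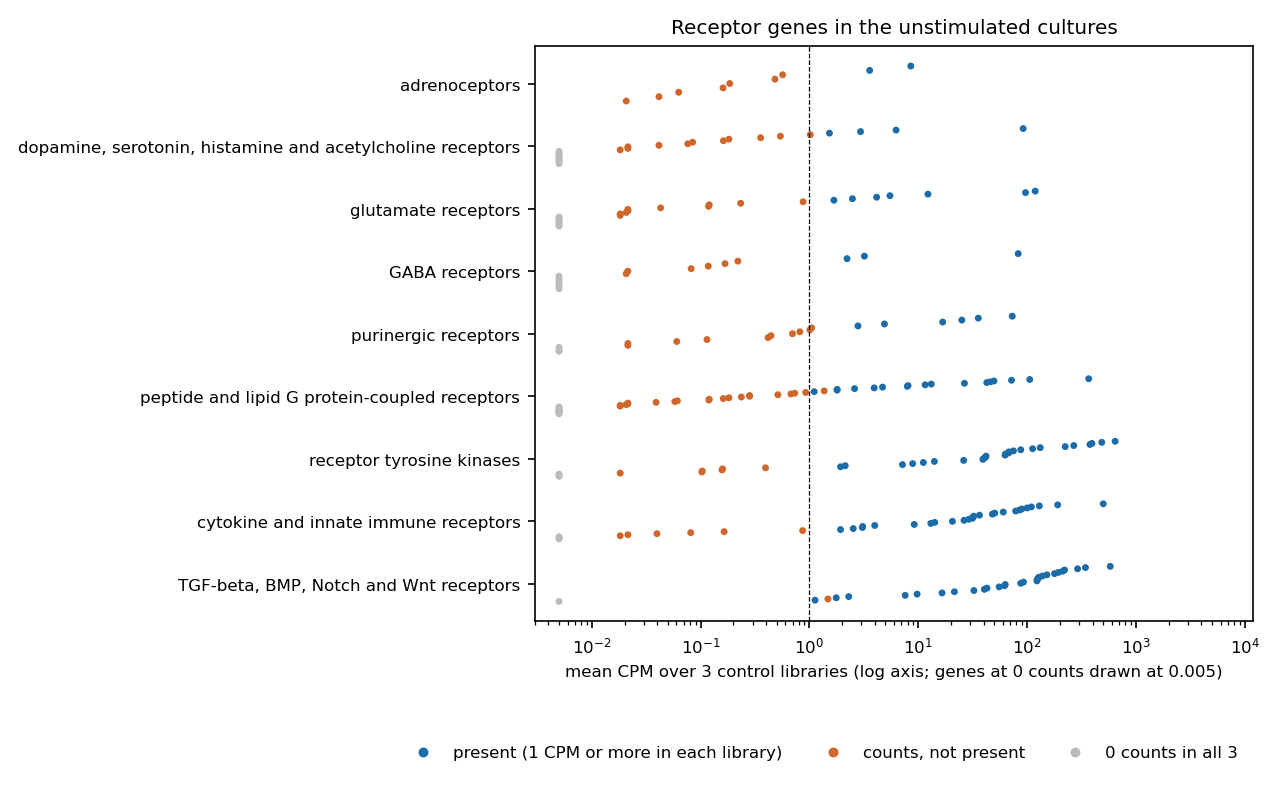
Mean level of each receptor gene (CPM, log axis) by family, 1 point per gene, coloured as present (blue), with counts but not present (orange) or at 0 counts (grey, drawn at 0.005). Points of the transmitter receptor families lie mostly below the dashed line at 1 CPM, and those of the kinase, cytokine and morphogen families mostly above it.

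Growth factors and cytokines act through receptors that carry or recruit kinases. Of 34 receptor tyrosine kinase genes 25 were present. The FGF receptor gene Fgfr1 was at 656, 646 and 634 CPM and was 4.18 ± 0.17 times Fgfr2 per length. The Gas6 receptor gene Axl was at 487 ± 8.15 CPM, the collagen receptor gene Ddr1 at 378 ± 6.98 CPM and the insulin-like growth factor receptor gene Igf1r at 269 ± 5.6 CPM. Fgfr3, the FGF receptor typical of astrocytes, was at 26.2 ± 1.51 CPM and Egfr at 67.7 ± 3.32 CPM. The BDNF receptor gene Ntrk2 was at 2.13 ± 0.262 CPM and the neurotrophin 3 receptor gene Ntrk3 at 224 ± 8.69 CPM. Kit and Alk were at 0.

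Of 35 cytokine and innate immune receptor genes 26 were present. The shared interleukin 6 family receptor gene Il6st was at 502 ± 15.3 CPM, the TNF receptor gene Tnfrsf1a at 190.3, 192 and 191 CPM and the interferon receptor genes Ifngr1 and Ifnar1 at 129.8 ± 3.43 and 109.6 ± 1.97 CPM. Il11ra1, the interleukin 11 receptor gene, was at 100.3 ± 6.03 CPM. The interleukin 1 receptor gene Il1r1 was at 29.2 ± 0.945 CPM and the lipopolysaccharide receptor gene Tlr4 at 20.6 ± 1.53 CPM. Ngfr, Cx3cr1 and Ccr1 were at 0. Of 30 receptors for TGF-beta, BMP, Notch, Wnt and Hedgehog signals 28 were present, with Tgfbr2 at 582 ± 9.59 CPM, Fzd6 at 345 ± 8.35 CPM, Bmpr1a at 292 ± 6.11 CPM, Smo at 221 ± 3.26 CPM and Notch2 at 213 ± 4.44 CPM. Fzd10 was at 0.

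Among secreted factors, 43 of 58 growth and neurotrophic factor genes were present. Beside Ccn2, the keratinocyte growth factor gene Fgf7 was at 764, 779 and 745 CPM and Csf1, the growth factor of microglia, at 651, 633 and 641 CPM. The procollagen protease gene Bmp1 was at 229 ± 12.3 CPM, the stem cell factor gene Kitl at 206 ± 4.76 CPM and Manf, a neurotrophic factor gene of the endoplasmic reticulum, at 179.7 ± 1.68 CPM. Classical neurotrophic factor genes were present too, with Cntf at 58.3 ± 4.51 CPM, Bdnf at 8.54 ± 0.845 CPM and Gdnf at 5.4 ± 0.714 CPM. Vegfa was at 88.7 ± 3.7 CPM and Fgf2, a factor of astrocytes, at 40.2 ± 0.523 CPM. Ntf3, Artn, Fgf5 and Csf3 were at 0.

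Of 37 cytokine, chemokine and related genes 16 were present. Spp1, the osteopontin gene, was at 1179, 1112 and 1132 CPM and the alarmin gene Il33 at 697, 661 and 672 CPM. The membrane-bound chemokine gene Cx3cl1 was at 185 ± 2.36 CPM, Mif at 80.2 ± 2.25 CPM and Cxcl12 at 40.6 ± 3.32 CPM. Genes of acute inflammation were low or undetected, with Ccl2 at 5.68 ± 0.746 CPM, Cxcl10 at 1.57 ± 0.168 CPM and 3, 1 and 0 counts of Il6. Il1b, Il10, Il12b, Tnf, Ifnb1, Ifng, Ccl3, Ccl4, Ccl8, Cxcl3 and Cxcl9 were at 0 in each library.

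Complement genes were divided. The classical pathway protease genes C1s1 and C1ra were at 1285, 1235 and 1274 and 296, 281 and 298 CPM, C4b at 579 ± 4.68 CPM and C3 at 232 ± 8.82 CPM. The regulator gene Cfi was at 16.3 ± 1.51 CPM. The recognition subunit genes C1qa, C1qb and C1qc, which microglia make in the brain, were at 0, as were C2, Cfd and C9. In all 6 of 18 were present.

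Of 18 synapse modulators 16 were present. Sparc was first per length, followed by Apoe and by the thrombospondin gene Thbs1, which promotes excitatory synapses, at 1378, 1303 and 1461 CPM. Thbs2 was at 468 ± 17.7 CPM, the heparan sulphate proteoglycan gene Agrn at 401 ± 12.6 CPM and the phagocytic receptor gene Megf10 at 282 ± 3.07 CPM. The glypican genes Gpc4 and Gpc6 were at 88.3 ± 4.8 and 48 ± 2.82 CPM. Sparcl1, the hevin gene, which is abundant in mature astrocytes, was at 3.42 ± 0.332 CPM, and Thbs4 was at 0.

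Structural matrix genes were present in 22 of 24 collagens and in 36 of 43 glycoproteins and proteoglycans. Col12a1, a fibril-associated collagen gene, was at 1258, 1312 and 1329 CPM, and per length Col1a1 was 1.46 ± 0.0286 times Col1a2. The fibrillar collagen gene Col5a2 was at 416 ± 16.2 CPM, the short-chain collagen gene Col8a1 at 304 ± 9.29 CPM and the basement membrane collagen gene Col4a1 at 263 ± 7.92 CPM. Postn and Vcan, matrix genes of mesenchyme and of the young brain, were at 1104 ± 37.2 and 1131 ± 39.2 CPM, and the perlecan gene Hspg2 was at 465 ± 28 CPM. Brain lecticans other than Vcan were low, with Bcan at 3.41 ± 0.993 CPM, Ncan at 0.567 ± 0.25 CPM and Acan at 0. Col9a1 and Lama1 were also at 0.

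Of 39 protease and inhibitor genes 34 were present. Beside Cst3, Ctsd, Timp2 and Timp3, the thrombin inhibitor gene Serpine2 was at 902 ± 14.5 CPM. Ctsb, a lysosomal protease gene, was at 791 ± 15.3 CPM and the collagen chaperone gene Serpinh1 at 679 ± 24.1 CPM. The collagen cross-linking enzyme gene Lox was at 612 ± 22 CPM, the membrane protease gene Mmp14 at 389.7 ± 7.07 CPM, and the gelatinase gene Mmp2 at 2.28 ± 0.118 CPM. Of 16 IGF binding and lipid carrier genes 11 were present, with Igfbp5 at 571, 575 and 574 CPM, the lipid transfer gene Pltp at 239 ± 8.63 CPM, Igfbp3 at 139 ± 0.913 CPM and Igfbp2 at 44.6 ± 1.87 CPM. Ttr was at 0.

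Of 26 neuropeptide and granin genes 5 were present, and 14 were at 0: Chga, Sst, Pdyn, Pomc, Cck, Tac1, Vip, Adcyap1, Nppb, Edn3, Nts, Gal, Cartpt and Pnoc. Agt, the angiotensinogen gene that brain astrocytes express, was at 29.3 ± 1.36 CPM and the proenkephalin gene Penk at 16.4 ± 0.265 CPM. The granin genes Scg2, Scg3 and Scg5 were at 6.19 ± 0.842, 3.39 ± 0.471 and 2.61 ± 0.456 CPM. In the Wnt pathway 11 of 33 ligand, antagonist and secretion genes were present. The antagonist genes Sfrp1 and Wif1 were at 713 ± 20.8 and 172 ± 7.85 CPM, the secretion factor gene Wls at 394 ± 9.92 CPM, and the non-canonical ligand genes Wnt5a and Wnt5b at 209 ± 7.01 and 56.7 ± 3.44 CPM. Wnt2, Wnt3, Wnt3a, Wnt7a, Wnt7b, Sfrp2 and Dkk1 were at 0.

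**Figure D5:**
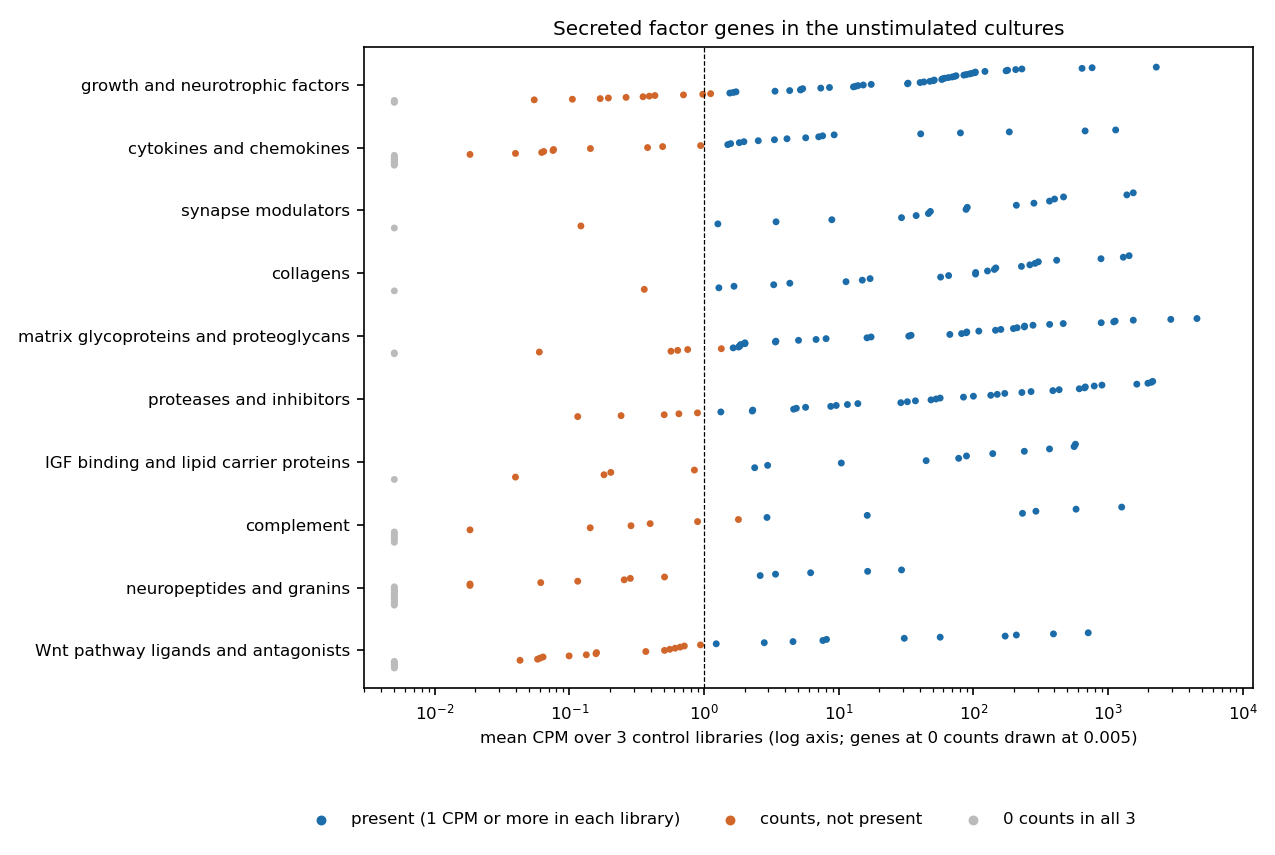
Mean level of each secreted factor gene (CPM, log axis) by family, 1 point per gene, coloured as present (blue), with counts but not present (orange) or at 0 counts (grey, drawn at 0.005). Bgn, Fn1, Ccn2 and Cst3 are the 4 highest points, and 14 of 26 neuropeptide and granin genes are at 0.

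The cultures carried transcripts of dividing cells. All 24 S phase genes and all 25 G2 or M phase genes were present, with summed levels of 678.6 ± 8.90 and 433 ± 23.2 CPM. The replication genes Rrm1 and Pcna were at 124 ± 2.49 and 77.9 ± 3.12 CPM, Mcm6 at 63.6 ± 0.737 CPM, the topoisomerase gene Top2a at 61.5, 60.5 and 67.5 CPM and the proliferation marker Mki67 at 37.3 ± 2.59 CPM. The G2 and M list summed to 431, 411 and 457 CPM, lowest in control 2 and highest in control 3. Inhibitors of the cycle were present beside them. Cdkn1b was at 285 ± 9.64 CPM, Cdkn1a at 103 ± 3.48 CPM, and the Ink4a and Arf locus gene Cdkn2a, which accumulates in culture, at 92.8, 91.4 and 83.5 CPM. Per length Cdkn2a was first of the 14 inhibitor and senescence genes, 12 of which were present. With median transcript lengths Cdkn1b (269) stood above Cdkn2a (230).

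Of 37 genes of reactive astrocytes 30 were present. Beside Vim, the copper oxidase gene Cp was at 1526, 1489.7 and 1497 CPM, the hyaluronan receptor gene Cd44 at 579.9 ± 16.4 CPM, and the membrane protein genes Emp1 and Tm4sf1 at 503 ± 26 and 460.3 ± 7.75 CPM. The acute phase gene Lcn2 was at 4.13 ± 0.121 CPM and Serpina3n at 11.6 ± 1.29 CPM, with Tgm1 at 0. All 23 glycolysis and lactate genes were present. Pkm was at 1271 ± 5.24 CPM, Aldoa at 823 ± 25.6 CPM, Ldha, which makes lactate, at 566 ± 18.1 CPM, Eno1 at 412 ± 1.62 CPM and Gapdh at 378 ± 8.72 CPM. Of 27 genes of glutamate and potassium handling 20 were present. The glutamate dehydrogenase gene Glud1 was at 449.9 ± 2.13 CPM and the sodium pump subunit gene Atp1b1 at 312 ± 14.7 CPM, while the potassium channel gene Kcnk1 was at 0.

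The 3 libraries resembled each other closely. Among present genes, 98.2% to 98.7% lay within 1.5-fold in a pair of libraries, with a median absolute difference of 0.0708 to 0.0819 on the log2 CPM scale. The spread within pairs still exceeded counting error alone, with a chi-square per degree of freedom of 2.37 to 2.99. The counts are estimates, so differences between libraries and error in assigning reads to genes cannot be told apart here. Of 9807 genes with a mean of at least 10 CPM, 27 had a highest library at least 1.5 times the lowest, and 9 at least 2 times. The widest were Rps6-ps4, with 0, 1128 and 0 counts, Zfp968, with 1180, 84 and 0 counts, and the isoleucyl-tRNA synthetase gene Iars1, with 245, 3 and 387 counts. Rps6-ps4 is a pseudogene of Rps6 and Zfp968 a zinc finger gene with close relatives, so their counts are uncertain. Relb, an NF-kB subunit gene, followed with 580, 137 and 542 counts, then Morc3, with 991, 235 and 734. Ift80, a cilium transport gene, had 1577, 555 and 561 counts and Zfp969 831, 1599 and 1719. Lars2, a mitochondrial leucyl-tRNA synthetase gene, had 3356, 4755 and 2235 counts. Gm14419 had 363, 162 and 152 counts and the kinesin gene Kifc2 216, 258 and 141. No library was the outlying one in all of these genes.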

How the data were processed

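RNA sequencing of poly(A)-enriched libraries was read from the gene table of the series, of which the 3 control columns were used. The values are estimated counts deposited by the authors as whole numbers, 1 per gene. Reads were handled with fastp 0.23.4 and Salmon 1.8.0 against mm39, per the submitters' processing notes. The way transcripts were summed to genes, the annotation release and the use of strand were not given in the sources used here, so antisense and overlapping genes and near-identical copies are uncertain.

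CPM was computed as the count over the library total of 15529158 to 18271360 with Python 3.11.15 and pandas 2.3.3. Length-scaled levels used the longest basic transcript of each gene in GENCODE M21, for names and lengths only, and 20903 of 22100 genes had a length. Of 22100 Entrez identifiers 22000 matched RefSeq. Promoter windows came from RefSeq (GRCm38.p6), and 17109 genes had at least 1. No coordinates were moved between builds. TMM factors came from edgeR 4.0.16 in R 4.3.3. No groups were compared, so no test was made, and counting floors of 3 counts cover counting error only.

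The 46 gene lists held 1026 measured genes, and 3 further names (Xist, Chrm4 and Chrm5) were not analysed here. The members and lists were chosen with earlier results of these data known. The text names the 30 genes with the highest mean CPM, the 5 present members of each list with the highest mean CPM and members at 0 counts, every member of lists of up to 12 genes, 8 astrocyte markers, and the 10 genes with the widest spread at a mean of at least 10 CPM. Some members are not reported here. Further members were named for a known role after their values were seen. Alternatives were other thresholds for presence (0.5 or 2 CPM, a mean of 1 CPM, 10 counts), TMM library sizes, leaving out ribosomal protein genes, transcript length, and leaving out each library. Scripts were tested on simulated data.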

Additional observations from a re-analysis of the deposited data

How the results depend on the processing

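Of the values that answer a question of the text, 178 stayed within 1.5 times of the reported count, or within 1 SD of the reported level, under an alternative, and 12 did not. No epithelial marker was present, but 1 (Cdh1) was at 0.5 CPM in each library, at a mean of 1 CPM, at 10 counts in each library, or without control 1, so the count ranged from 0 to 1 when a library was left out. Of the sex-linked genes 2 were present and 1 at 2 CPM. Without ribosomal protein genes, the 30 highest genes held 8.256% and the 100 highest 15.72% of counts. The order of genes depended on length: 16 of the 30 highest by CPM were among the 30 highest per kilobase of the longest transcript, and 16 with the median length, an alternative chosen after seeing the data. The count of 27 genes with a 1.5-fold spread was 8 at a mean of at least 50 CPM, and 12 to 18 without 1 library, with 12 without control 2, 17 without control 3 and 18 without control 1. Among other lists 392 values stayed and 4 moved, with 10 purinergic and 2 Hox genes present at 0.5 CPM or at 10 counts. No paired analysis was possible because 1 group was described and its results come from no test. Depth limits genes at few counts: 158 genes averaged between 0.9 and 1.1 CPM, and 2 of them were present.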

Other observations

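Few transcripts without a protein were counted. Of 300 genes that RefSeq lists as long noncoding, 38 were present, and together they held 0.0694% of all counts. Tug1, a nuclear long noncoding RNA gene expressed in many tissues, was at 181, 174 and 189 CPM. Only 300 of the 22100 genes counted were long noncoding by RefSeq, so the share covers few such genes. Libraries enriched for poly(A) miss transcripts that lack it, and whether this lowered the share was not tested.

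Among sex-linked genes, Tsix, which is antisense to Xist, was at 18.8, 35.2 and 19.4 CPM, highest in control 2. Without strand, reads of Tsix and Xist cannot be told apart. The Y-linked genes Ddx3y, Eif2s3y, Uty and Usp9y were at 0 in every library, whereas Kdm5d was at 2.08, 1.87 and 2.49 CPM. Kdm5d has a close relative on the X chromosome, Kdm5c, so its counts are uncertain. The labels give no sex.

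Structural filament genes other than Vim and Nes were led per length by the lamin gene Lmna, at 312 ± 15.9 CPM. Lmnb1 was at 36.5 ± 0.658 CPM and Lmnb2 at 18.8 ± 1.16 CPM. The neurofilament gene Nefl and the keratin gene Krt18 were at 0, and Prph and Ina, filament genes of neurons, were at 1.98 ± 0.406 and 2.38 ± 0.397 CPM.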
